A study of Homo sapiens and Mus musculus with 20 samples.

Results

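The experiment described here gave pyruvate to IMR90 cells, a fibroblast line from human fetal lung, and profiled them by bulk RNA sequencing beside untreated cells. Its members are the 4 libraries whose titles carry the names Pyruvate (2 libraries) and Control6 (2 libraries), out of 20 libraries in the whole series. All 4 are labelled wild-type lung fibroblasts. They share the line and differ by the labels only in treatment, pyruvate or none. The study gave pyruvate to IMR90 cells brought to senescence by repeated passaging. The dose, the duration and the passage of each library are not given in the sources used here, nor whether replicates were separate cultures, so p-values measure only the spread between these libraries, which may be technical. The same series holds 8 other IMR90 libraries, 4 of them untreated, from experiments with A485, which blocks the acetyltransferase p300, and with MS-275, which blocks histone deacetylases of class I.

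Pyruvate is the end product of glycolysis. Cells reduce it to lactate with lactate dehydrogenase, which returns NADH to NAD+, or carry it into mitochondria through the MPC1 and MPC2 carrier for oxidation by pyruvate dehydrogenase. Lactate, as lactyl-CoA, can be placed on histone lysines by acyltransferases such as p300 and taken off by class I histone deacetylases. Cells that senesce stop dividing, hold high levels of the cyclin-dependent kinase inhibitors p16 (CDKN2A) and p21 (CDKN1A), lose lamin B1 (LMNB1) and secrete inflammatory and matrix-remodelling proteins. The comparison asks which of these programmes differ after pyruvate.

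The deposited value of a gene is its read count divided by the DESeq2 size factor of the library, called the normalised count below. The libraries held 30156436 and 27118843 reads in control and 24179065 and 25801555 in pyruvate, over 12013 listed genes. Replicates correlated at 0.987 in control and 0.989 in pyruvate (Pearson's r of log2 values across genes, which are not independent replicates). Fibroblast markers were listed in 11 of 11 cases and lung mesenchyme markers in 4 of 5. Of the markers of other cell types, 2 of 8 epithelial (KRT8 and KRT18), 2 of 6 endothelial, 0 of 7 blood and immune and 0 of 6 muscle genes were listed. The epithelial pair summed to 0.00644% of reads in control and 0.00687% in pyruvate, and the endothelial pair to 0.00142% and 0.00613%.

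Both control libraries stood apart from every other IMR90 library in transcript GC content. Weighted by reads, the mean GC content of their transcripts was 52.89% and 52.81%, against 49.8% and 49.83% in the pyruvate libraries and 48.04% to 49.93% in the other 8. Across genes, the level per kilobase correlated with GC content at a Spearman's rho of 0.471 and 0.461 in the control libraries, and at -0.072 to 0.108 in the other 10 IMR90 libraries. The control libraries correlated with the 4 untreated libraries of the other experiments at 0.717 to 0.817, and the pyruvate libraries at 0.924 to 0.937. Those 4 correlated with each other at 0.917 to 0.988. Genes of mitochondrial DNA took 6.69% and 6.68% of reads in control and 4.68% and 4.72% in pyruvate. In the 4 untreated libraries of the other experiments they took 2.78% to 5.37%, and in the A485 and MS-275 libraries 3.72% to 6.96%. On this measure the control libraries lay above the other untreated libraries, but not above all of the other 8. What set the control libraries apart and what pyruvate did cannot be told apart in this design. For this reason many results are given beside the level in the 4 other untreated libraries, in reads per 1000000 reads (RPM) over the 11994 genes that all 3 IMR90 tables list. Those tables were normalised separately, so that setting side by side is a description with no test. Whether those 4 libraries came from cells at the same stage of senescence is not given here. Their replicates also differed more, with a chi-square per gene of 108.9 and 396.8 against 13.8 in control. A single library can therefore set an end of the ranges quoted below.

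Fold changes were tested by limma on log2(normalised count + 1) with Benjamini-Hochberg adjustment over all genes, and a call needed both an adjusted p below 0.05 and a log2 fold change beyond 1 in either direction. This direct comparison called 3726 genes higher in pyruvate (31.0% of the genes tested) and 2777 lower (23.1%). Over all genes the median fold change was -0.01, and 57.3% of the calls were higher. Scaled to equal library totals, the median was 0.30 and 71.7% of the calls were higher. Quantile normalisation gave a median of -0.17 and a higher share of 49.3%.

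The fold change ran with transcript GC content at a Spearman's rho of -0.717 and with transcript length at 0.33 across 11825 genes with an annotated transcript. In 10 bins of GC content the median log2 fold change went from 1.72 in the bin lowest in GC, where 76.8% of genes were called higher, to -1.21 in the bin highest in GC, where 61.9% were called lower. The difference between replicates did not run with GC content to this extent, with a rho of 0.0739 in control and -0.031 in pyruvate. A smooth trend on GC content and length held 53.2% of the variance of the fold change. Each gene was therefore also compared with genes like it, by removing this trend from every library and testing what was left, named here the residual. The residual is a log2 difference relative to genes of like GC content and length, not relative to 0. Its SE covers only the spread between libraries. Across genes the residual had an SD of 1.05, so a call does not make a gene exceptional among genes like it. Many genes named below lay within the range of most of their 200 nearest genes. Examples are PRKDC, XRCC5, MSH6, SLC16A1, COL12A1, EP300, SLC2A1 and LDHA. MPC1, SIRT1, P4HA1, INSIG1, MT-CO1, TNFRSF10B, STC2, EZH1 and IGF2R did so too, and these examples are not a complete list. MKI67, LMNB1 and AKR1C1 lay outside the range of most of their nearest genes. This second test called 1754 genes higher (14.8%) and 1667 lower (14.1%). Counts of calls in the gene lists below are to be read beside the share of all genes in the same test. Called the same way in both tests were 1328 genes higher and 863 lower, 4226 direct calls were not residual calls, and 3 genes were called in opposite directions.

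**Figure D1:**
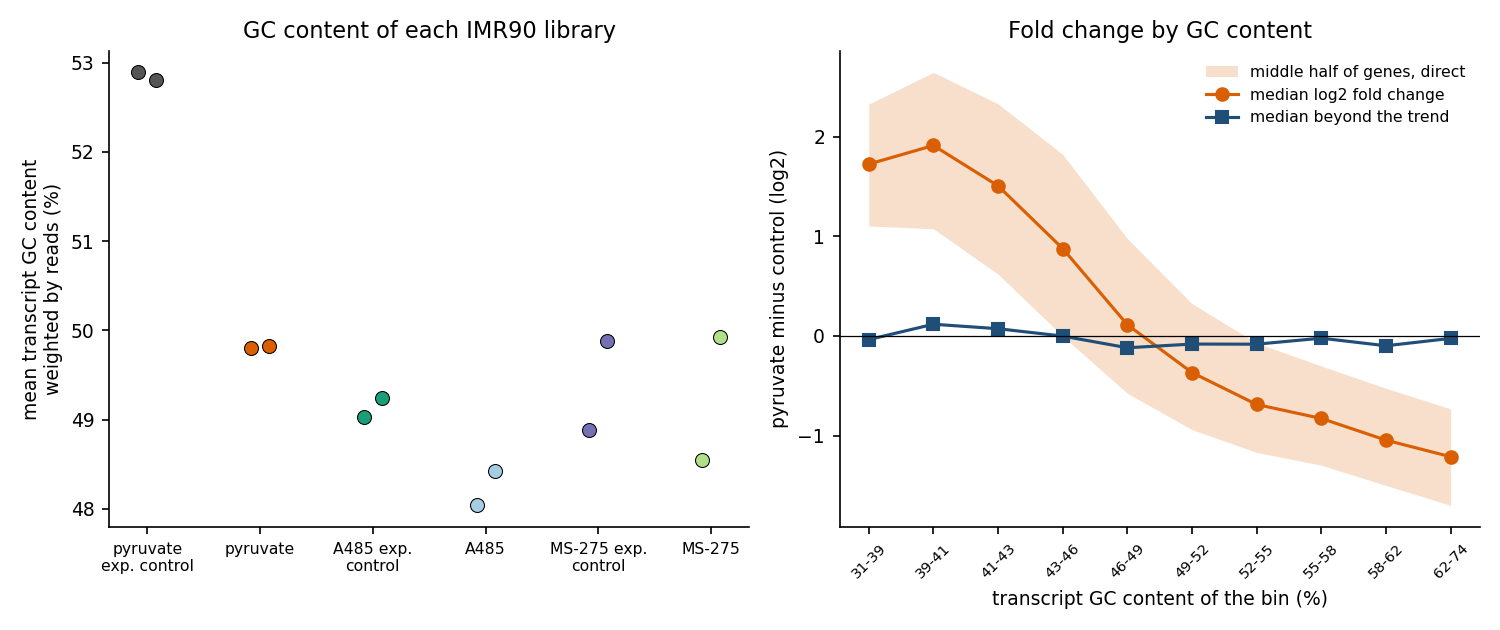
Left: mean transcript GC content weighted by reads (%, vertical axis) of the 12 IMR90 libraries by group, 1 point per library. Right: median pyruvate minus control difference (log2, vertical axis) in 10 bins of transcript GC content (%, horizontal axis), as fold change (circles, with the band from the lower to the upper quartile) and as residual (squares). The control libraries lie at 52.89% and 52.81%, above all others, the direct medians go from 1.72 to -1.21, and the residual medians stay between -0.118 and 0.118.

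Genes called higher in the direct comparison lay mostly below the other untreated libraries in control. They were chosen on their control and pyruvate values, which favours such shares. The shares therefore do not divide the change between control and pyruvate. Of 3725 such genes, both control libraries lay below all 4 others in 96.1%. Both pyruvate libraries lay above all 4 in 14% and below all 4 in 38.7%. Of 2772 genes called lower, the control libraries lay above all 4 in 72.4%, and the pyruvate libraries below all 4 in 42.9%. Among the 1752 genes with a higher residual call the shares were 79.3% for control below and 23.4% for pyruvate above. Among the 1663 with a lower residual call they were 51.2% for control above and 40.3% for pyruvate below. Over all 11994 genes, control lay below in 43.5% and above in 26.9%, and pyruvate lay above in 15.7% and below in 29.7%.

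The 8 genes that rose most beyond the trend by the naming rule were AEBP1, IGF2, HTRA3, ALDH1A3, BGN, TMEM119, MKI67 and LMNB1. AEBP1 (hg38 chromosome 7, 44104345 to 44114562), a secreted collagen-binding protein, measured 31.4 and 2.17 normalised counts in control and 888 and 935 in pyruvate. The control libraries differed widely from each other, yet both lay far below pyruvate (residual 7.33, SE 0.77, adjusted p 9.78e-06 by limma). The residual was 8.98 without control replicate 1 and 5.69 without control replicate 2. AEBP1 stood at 37.3 and 39.2 RPM in pyruvate and at 4.84 to 10.8 in the other untreated libraries, so pyruvate was the highest of all. IGF2 (chromosome 11, 2129112 to 2158391), a fetal growth factor, measured 77.6 and 56.4 in control and 2623 and 2734 in pyruvate (residual 5.97, SE 0.15). It also passed the other untreated libraries, with 110 and 115 RPM against 2.00 to 46.9. HTRA3, a secreted serine protease, had a residual of 5.03 (SE 0.30), ALDH1A3, a retinaldehyde dehydrogenase, 4.75 (SE 0.32), BGN, the small proteoglycan biglycan, 4.61 (SE 0.12), and TMEM119, a membrane protein, 4.46 (SE 0.23). HTRA3, BGN and TMEM119 lay within the range of the other untreated libraries after pyruvate, and ALDH1A3 above it.

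The genes that fell most beyond the trend included a pair of steroid-reducing aldo-keto reductases. AKR1C1 (chromosome 10, 4963253 to 4983283) measured 9970 and 11069.5 normalised counts in control and 293 and 281 in pyruvate (residual -6.90, SE 0.08, adjusted p 5.66e-12 by limma). AKR1C2 (chromosome 10, 4987775 to 5018031) measured 1268 and 1285 in control and 62.9 and 39.7 in pyruvate (residual -6.22, SE 0.22). The pair is near-identical in sequence, so the split of reads between them is uncertain. In RPM, AKR1C1 was 337 and 376 in control, 12.3 and 11.8 in pyruvate and 28.8 to 77.2 in the other untreated libraries, which places the groups on opposite sides of that range. MAOA, the mitochondrial enzyme that oxidises serotonin and noradrenaline, measured 307 and 255 against 17.7 and 18.5 (residual -5.29, SE 0.31). THBS1-IT1, an RNA named for its place within the thrombospondin 1 gene, had a residual of -5.44 (SE 0.19), and its reads cannot be kept apart from those of its host because the strand setting of the counting is not known here. PTCHD4, a patched-domain protein (-4.54, SE 0.50), FBXO2, a subunit of a ubiquitin ligase for glycoproteins (-4.53, SE 0.56), and MAPK8IP2, a scaffold of JNK signalling (-4.37, SE 0.34), completed the set with IFI6, an interferon-stimulated gene.

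**Figure D2:**
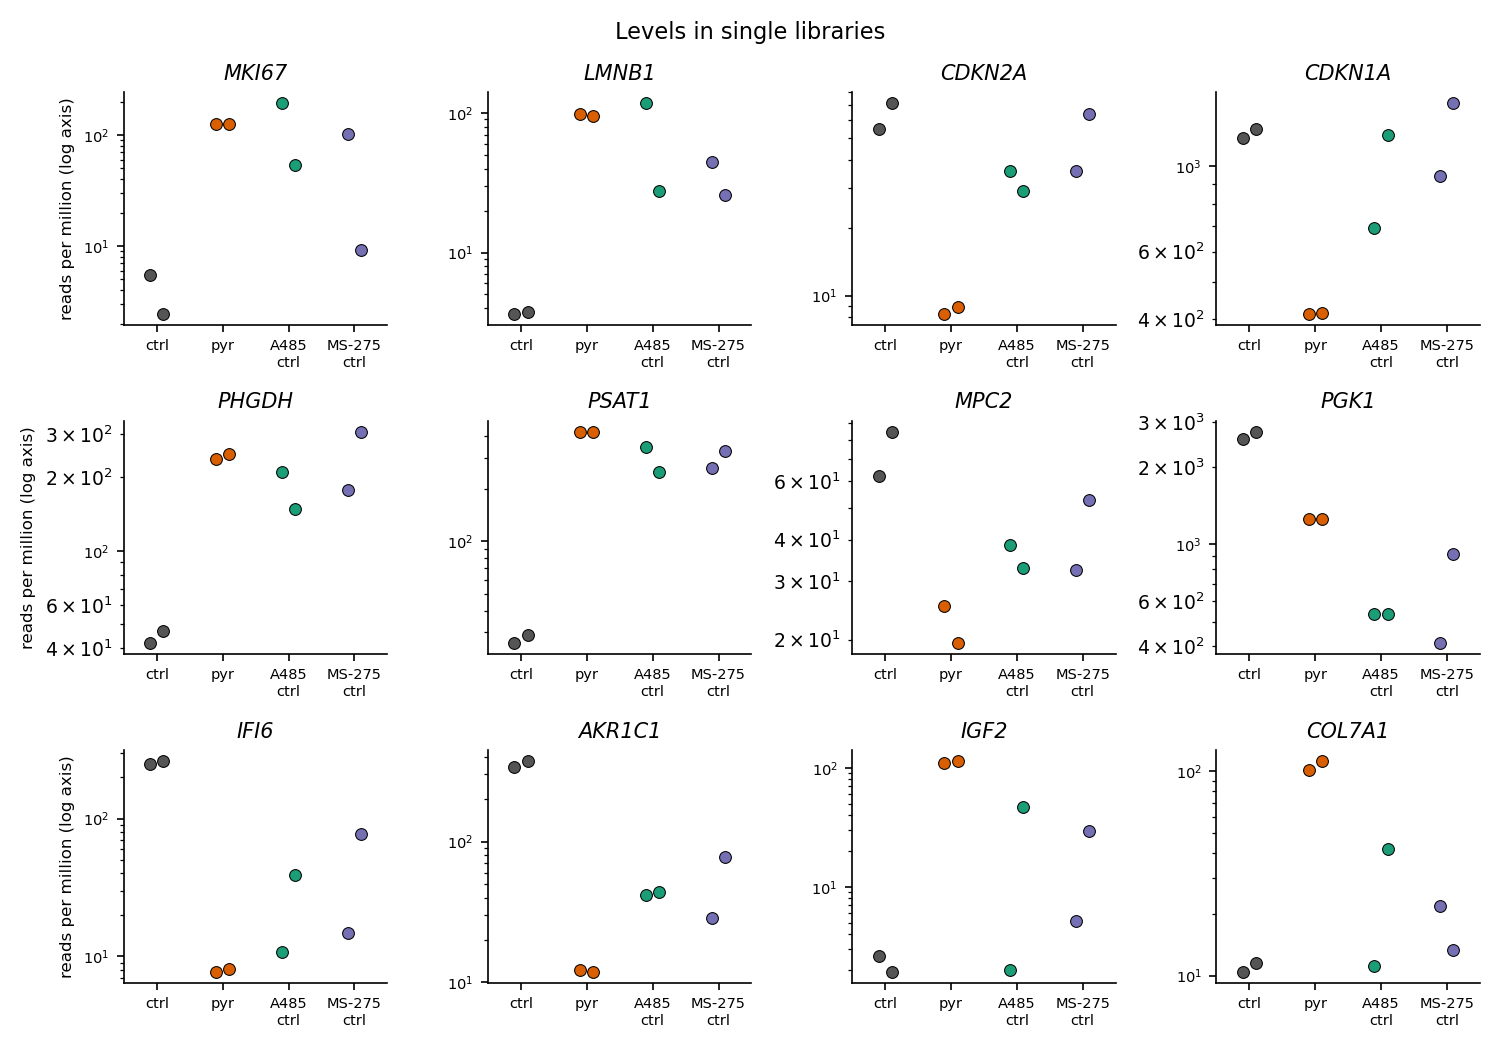
RPM (vertical axes, logarithmic, each panel on its own scale) of 12 genes in the 2 control (ctrl) and 2 pyruvate (pyr) libraries and in the untreated libraries of the A485 and MS-275 experiments, 1 point per library. MKI67 lies at 5.44 and 2.43 in control, 126 in both pyruvate libraries and 9.19 to 196 in the others, while AKR1C1 and IFI6 lie above the others in control and below them in pyruvate.

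Genes of cell division rose together. Of 50 tested mitosis genes, 43 were called higher and 0 lower (median log2 fold change 2.28), and 42 were higher beyond the trend (median residual 2.09), where the medians of all genes were -0.01 and -0.04. MKI67 (chromosome 10, 128096659 to 128126423), the Ki-67 proliferation antigen, measured 161 and 71.6 normalised counts in control and 2995 and 2999 in pyruvate, with no overlap (log2 fold change 4.79, SE 0.28, adjusted p 2.38e-08 by limma, and residual 4.40). CDC20 (chromosome 1, 43358981 to 43363203), the activator of the anaphase-promoting complex, measured 492 and 510 in control and 1484 and 1330 in pyruvate. Its transcript is rich in GC (56.9%), where most genes fell, so its residual of 2.49 (SE 0.10) exceeded its log2 fold change of 1.49. PLK1, the mitotic polo-like kinase, measured 404 and 369 against 1087 and 1136 (residual 2.51, SE 0.11), and TPX2, a spindle assembly factor, 813 and 700 against 4310 and 4453 (residual 2.11, SE 0.08). BUB3, a spindle checkpoint protein low in GC, rose by 1.83 on the log2 scale but had a residual of -0.09. The control libraries lay below all 4 other untreated libraries for 41 of the 50 genes, and pyruvate lay above all 4 for 3. In bulk RNA, fewer dividing cells and less of these transcripts per cell cannot be told apart.

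DNA replication genes moved the same way. Of 44 tested, 24 were called higher and 1 lower (median 1.33), and 28 were higher and 1 lower beyond the trend (median residual 1.24). MCM7, a subunit of the replicative helicase, measured 1525 and 1420 normalised counts in control and 3707 and 3767 in pyruvate (residual 2.25, SE 0.06). UHRF1, which carries DNA methylation over to new strands, measured 824 and 817 against 2534 and 2608 (residual 2.26, SE 0.07). RRM1, the large subunit of ribonucleotide reductase, measured 225 and 219 against 3342 and 3676 (residual 2.68, SE 0.09). The small subunit RRM2 rose by 2.31 on the log2 scale, and its residual of 0.89 was under the threshold. Here the control libraries lay below all other untreated libraries for 22 genes and pyruvate lay above all of them for 22, against 3 of the mitosis genes. Whether the lists differ in this was not tested.

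The promoters of these genes are shown because members moved together, with 250 bases before the RefSeq start site (GRCh38.p14), written on the gene's own strand from 5′ to 3′. Capitals mark the letters searched on both strands, TTTGAA or TTCAAA (the cell cycle homology region, CHR) and CCAAT or ATTGG (the CCAAT box) for mitosis genes, and TTCCCGC or GCGGGAA (an E2F motif) for replication genes. CHR and E2F motifs are known binding letters of the complexes that time gene expression in the cell cycle. CDC20 comes from chr1:43358731-43358980 (plus strand), PLK1 from chr16:23678639-23678888 (plus strand) and MCM7 from chr7:100101398-100101647 (minus strand). The capitals show only those of the named motifs that were searched for the gene's own list.
CDC20: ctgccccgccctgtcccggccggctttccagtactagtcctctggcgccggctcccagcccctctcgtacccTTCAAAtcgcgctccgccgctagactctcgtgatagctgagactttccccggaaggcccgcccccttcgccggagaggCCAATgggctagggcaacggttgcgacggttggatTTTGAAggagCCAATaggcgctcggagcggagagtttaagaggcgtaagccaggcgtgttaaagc
PLK1: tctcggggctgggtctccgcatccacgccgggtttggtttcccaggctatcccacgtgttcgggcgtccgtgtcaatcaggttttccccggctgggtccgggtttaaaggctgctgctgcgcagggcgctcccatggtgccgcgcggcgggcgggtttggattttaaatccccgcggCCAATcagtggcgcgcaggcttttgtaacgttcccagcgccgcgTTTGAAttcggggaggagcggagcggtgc
MCM7: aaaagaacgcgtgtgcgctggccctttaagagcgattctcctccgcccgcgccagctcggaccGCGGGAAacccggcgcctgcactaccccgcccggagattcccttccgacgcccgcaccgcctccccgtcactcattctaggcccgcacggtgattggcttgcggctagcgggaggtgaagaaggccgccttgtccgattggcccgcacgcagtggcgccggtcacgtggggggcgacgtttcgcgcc
A promoter was found for 41 of the mitosis genes, and 18 of them (43.9%) held the CHR letters, against 13.6% of all 27305 promoters and 7.9% of those of tested genes. CCAAT letters were in 28 of the 41 (68.3%), against 33.0% of all promoters and 34.8% of those of tested genes. Among the 35 mitosis genes with a higher residual call, 16 held the CHR letters (45.7%) and 24 the CCAAT letters (68.6%). The E2F letters were in 12 of 39 replication promoters (30.8%), against 5.6% of all and 9.0% of those of tested genes, and all 12 belonged to the 26 genes with a higher residual call. A match describes these letters in this window and shows no binding.

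DNA repair genes rose in part with their GC content. Of 30 homologous recombination and Fanconi genes, 15 were called higher and 1 lower (median 1.06), and 11 were higher and 1 lower beyond the trend (median residual 0.70). With quantile normalisation the direct calls were 11 higher and 2 lower (median 0.46). FANCI, of the complex that marks DNA crosslinks, measured 51.1 and 70.5 normalised counts in control and 1083 and 1143 in pyruvate (residual 2.81, SE 0.19). Of 15 end joining genes, 8 were called higher and 3 lower (8 and 0 with equal library totals, 7 and 5 with quantile normalisation), and 3 and 1 beyond the trend (median residual 0.47). PRKDC, the catalytic subunit of the DNA-dependent protein kinase, measured 1131.5 and 970 against 10715 and 10857 (log2 fold change 3.36, residual 2.28, SE 0.05), and XRCC5, its Ku80 partner, 1487 and 1541 against 12835 and 12896 (residual 1.71, SE 0.05). Both were above all other untreated libraries after pyruvate. Of 40 mismatch and excision repair genes, 18 were called higher and 7 lower (19 and 4 with equal library totals), and 8 and 0 beyond the trend (median residual 0.20). MSH6, a mismatch sensor, was among those 8 (residual 2.00, SE 0.11). Beyond the trend, the higher shares of the end joining list and of the mismatch and excision list were only a little above the 14.8% of all genes.

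Of the genes that mark senescence, LMNB1 was called higher and CDKN2A lower in both tests, and CDKN1A was called lower only directly. LMNB1 (chromosome 5, 126776623 to 126837020) measured 107 and 111 normalised counts in control and 2347 and 2283 in pyruvate (log2 fold change 4.40, SE 0.12, residual 4.35). In RPM, LMNB1 was 3.61 and 3.76 in control. Its 98.7 and 95.8 in pyruvate lay within the 25.8 to 119 of the other untreated libraries. CDKN2A (chromosome 9, 21967752 to 21995301) measured 1627.5 and 2115 in control and 197 and 212 in pyruvate (log2 fold change -3.18, SE 0.14, residual -2.11). In RPM it was 54.9 and 71.9 in control, 29.0 to 63.8 in the other untreated libraries and 8.27 and 8.91 in pyruvate, below every untreated library. CDKN1A (chromosome 6, 36676460 to 36687337) measured 35198 and 36767 in control and 9790 and 9869 in pyruvate (log2 fold change -1.87, SE 0.05), and its residual of -0.87 was under the threshold. It too was below the untreated range, at 412 and 414 RPM against 692 to 1467. Of 22 tested CDK inhibitors and senescence regulators, 13 were called higher and 4 lower, and 8 and 3 beyond the trend. The higher ones included the nuclear proteins TMPO (residual 3.19, SE 0.12), HMGB1 (1.59, SE 0.08) and CBX5 (1.89, SE 0.10).

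The p53 target list and the secreted factors did not move as a block. Of 29 p53 targets, 12 were called higher and 7 lower (13 and 3 with equal library totals), which became 3 and 3 beyond the trend. The list median of 0.01 was 0.32 with equal library totals and -0.10 with quantile normalisation. TNFRSF10B, a TRAIL receptor, fell from 17332 and 16051 normalised counts to 6612 and 7537 (residual -1.18, SE 0.06), and both calls were lost with quantile normalisation (log2 fold change -0.88, residual -0.70). Of 38 senescence-associated secreted factors, 8 were called higher and 12 lower, and 6 and 12 beyond the trend. The direct balance turned with equal library totals, to 10 higher and 8 lower, and was 6 and 9 with quantile normalisation. PLAT, the tissue plasminogen activator, measured 79593.5 and 80201 normalised counts in control and 16665 and 16518 in pyruvate (log2 fold change -2.27, residual -1.71, SE 0.03). At 701 and 693 RPM after pyruvate it was still above the 93.4 to 475 of the other untreated libraries. The chemokine CCL2 fell from 1761 and 2017 to 792 and 714 (residual -2.68, SE 0.08). The chemokine CXCL8 went the other way, from 46.2 and 60.8 to 1580 and 1435 (log2 fold change 4.80, SE 0.18, residual 3.96), with 66.5 and 60.2 RPM against 4.12 to 237 in the other untreated libraries. Of 8 senescence genes singled out in the project, 7 were tested. KAT6A, CENPK and NSD2 were called higher and NDRG1 lower, and 5 were higher beyond the trend. That list was chosen on data of the same project, so it is not independent evidence of its direction.

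Interferon-stimulated genes, which cells raise against viruses or on sensing DNA in the cytosol, were more often called lower beyond the trend. Of 39 tested, 8 were called higher and 15 lower (median -0.68), and 2 were higher and 14 lower beyond the trend (median residual -0.83). Directly the calls were even with equal library totals, at 11 higher and 11 lower (median -0.37), and were 5 and 18 with quantile normalisation. IFI6 (chromosome 1, 27666064 to 27672212), an interferon-induced membrane protein, measured 7360 and 7738 normalised counts in control and 183 and 194 in pyruvate (log2 fold change -5.32, SE 0.09, adjusted p 1.84e-11 by limma, residual -4.32). ISG15 (chromosome 1, 1001138 to 1014540), a ubiquitin-like modifier, measured 6138 and 7035 against 293 and 334 (log2 fold change -4.39, residual -3.07, SE 0.09). MX1, an antiviral GTPase, measured 645 and 565 against 76.7 and 61.9 (residual -2.54, SE 0.20). IFI6 and ISG15 were above all other untreated libraries in control and below all of them in pyruvate, at 7.69 and 8.14 RPM against 10.8 to 77.5 for IFI6. B2M, the invariant chain of MHC class I, rose by 1.66 on the log2 scale with a residual of 0.17. The promoters of IFI6 (chr1:27672193-27672442 (minus strand)) and ISG15 (chr1:1013247-1013496 (plus strand)) follow, with GAAANNGAA or TTCNNTTTC, the core of the interferon-stimulated response element, in capitals.
IFI6: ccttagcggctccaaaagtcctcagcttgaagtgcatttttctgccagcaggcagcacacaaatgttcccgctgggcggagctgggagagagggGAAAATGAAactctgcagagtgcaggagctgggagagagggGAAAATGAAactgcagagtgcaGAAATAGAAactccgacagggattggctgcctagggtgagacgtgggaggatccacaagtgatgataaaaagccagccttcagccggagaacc
ISG15: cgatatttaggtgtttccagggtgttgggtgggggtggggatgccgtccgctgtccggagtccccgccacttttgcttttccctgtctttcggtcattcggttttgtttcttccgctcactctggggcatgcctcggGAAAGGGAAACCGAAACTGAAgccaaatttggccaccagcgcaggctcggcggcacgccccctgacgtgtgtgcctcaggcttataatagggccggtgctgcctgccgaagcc
These letters were in 18 of 33 interferon promoters (54.5%) against 7.1% of all promoters and 5.2% of those of tested genes, and in 7 of the 13 with a lower residual call (53.8%). In ISG15 overlapping matches were joined into 1 run of capitals.

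Glycolytic genes were lower after pyruvate, in large part as genes of their GC content were. Of 20 tested, 1 was called higher and 13 lower (median -1.10), and 0 were higher and 4 lower beyond the trend (median residual -0.37, or 0.00 with quantile normalisation). PGK1 (chromosome X, 77910739 to 78129295), phosphoglycerate kinase, measured 76474 and 80973 normalised counts in control and 29742 and 29912 in pyruvate (log2 fold change -1.40, SE 0.05, residual -2.91). It is low in GC (42.8%), where most genes rose, and its fold change was -0.83 with quantile normalisation. SLC2A1, the glucose transporter GLUT1, measured 37924 and 37358 against 11939 and 11935 (log2 fold change -1.66, residual -1.09, the latter -0.59 with quantile normalisation). PFKFB4, which makes the activator of phosphofructokinase, measured 2401.5 and 2264.5 against 439 and 457 (log2 fold change -2.38, residual -1.67, SE 0.08). GAPDH fell by 1.22 on the log2 scale with a residual of -0.25, and its call was lost with equal library totals (-0.91). Compared with the other untreated libraries, control was above all 4 for 18 of the 20 genes and pyruvate was still above all 4 for 15. With equal library totals 6 of the genes were called lower, and with quantile normalisation 4.

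Genes that handle pyruvate and lactate split by member. Of 27 tested, 11 were called higher and 6 lower (median 0.32), and 4 and 6 beyond the trend (median residual -0.43, or 0.37 with a trend on length alone). LDHA (chromosome 11, 18394560 to 18408425), the lactate dehydrogenase subunit that favours lactate formation, measured 77153 and 81882 normalised counts in control and 79402 and 79856 in pyruvate, so that the groups overlapped (log2 fold change 0.00, SE 0.05, adjusted p 0.962 by limma). Genes of its GC content (41.8%) rose, and its residual was -1.28 (SE 0.03), which was -0.37 with quantile normalisation and 0.22 with a trend on length alone. LDHA stood at 2605 and 2783 RPM in control and 3341 and 3351 in pyruvate, against 585 to 1239 in the other untreated libraries. LDHB, the subunit of the heart form, was sparse and rose from 29.5 and 22.8 to 150 and 148 (residual 1.61, SE 0.34). MPC2 (chromosome 1, 167916675 to 167937072), of the mitochondrial pyruvate carrier, fell from 1847.5 and 2492 to 602 and 464 (log2 fold change -2.02, SE 0.15, residual -3.16). Its partner MPC1 measured 491 and 457 against 288 and 335 (log2 fold change -0.61, residual -1.92, SE 0.15). Both lay below all other untreated libraries after pyruvate.

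The plasma membrane carriers of lactate and pyruvate moved in opposite directions in the direct comparison. SLC16A1 (MCT1) measured 259 and 251 normalised counts in control and 2457 and 2500 in pyruvate (log2 fold change 3.28, SE 0.10, residual 1.51). SLC16A3 (MCT4), the exporter of glycolytic cells, measured 17516 and 18198 against 4568 and 4734 (log2 fold change -1.94, SE 0.06), and its residual of -0.71 was under the threshold. After pyruvate both lay within the range of the other untreated libraries, which was 94.0 to 126 RPM for SLC16A1. PDK1, a kinase that inhibits pyruvate dehydrogenase, rose by 2.68 on the log2 scale with a residual of 0.61, and PDK2 fell by 2.25 with a residual of -1.38. PCK2, which makes phosphoenolpyruvate in mitochondria, measured 673 and 614 against 1710.5 and 1392 (residual 2.32, SE 0.11). PDHA1, the catalytic subunit of pyruvate dehydrogenase, had a log2 fold change of -0.27, and PC, pyruvate carboxylase, -1.52, both with a residual of -0.75, under the threshold.

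Respiratory chain transcripts were lower where they moved beyond the trend, while genes of the tricarboxylic acid cycle split. Of 68 nuclear-encoded respiratory chain genes, 6 were called higher and 25 lower (median -0.76, with 8 and 13 called at equal library totals), and 0 and 24 beyond the trend (median residual -0.43). ATP5MC3, of the membrane ring of ATP synthase, fell from 5458 and 6077 normalised counts to 2731 and 2569 (log2 fold change -1.12, residual -2.69, SE 0.05), and NDUFC2, of complex I, from 1035 and 1178 to 398 and 379 (residual -2.30, SE 0.10). The call on ATP5MC3 was lost with equal library totals (-0.81) and quantile normalisation (-0.83), but not its residual call. All 13 tested genes of mitochondrial DNA had log2 fold changes and residuals below 0. Of these, 3 were called lower directly and 11 beyond the trend, and with equal library totals 0 were called directly. MT-CO1, a core subunit of cytochrome c oxidase, measured 611111 and 604156 against 263078 and 267396 (log2 fold change -1.20, SE 0.04, or -0.89 with equal library totals, residual -1.44, or -0.79 with quantile normalisation). In RPM, control lay above all other untreated libraries for 13 of the 13 genes, and pyruvate still did for 7. Overlapping and opposite-strand genes of mitochondrial DNA may share reads. Of 21 tricarboxylic acid cycle genes, 7 were called higher and 7 lower, and 2 and 2 beyond the trend. The direct higher share was near the 31.0% of all genes. The direct calls were 7 higher and 0 lower with equal library totals, and 6 and 3 with quantile normalisation. MDH1, the cytosolic malate dehydrogenase, was the strongest riser (451 and 512 against 3117 and 3146, residual 1.69, SE 0.08).

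Of 23 hypoxia-inducible genes, 4 were called higher and 7 lower, and 4 and 6 beyond the trend. The direct balance turned with equal library totals, to 6 higher and 3 lower, and with quantile normalisation, to 5 and 4. The list median was 0.18, or -0.19 with quantile normalisation. The prolyl hydroxylase subunits for collagen differed, since P4HA2 fell from 15488 and 15625.5 to 6548 and 6208 (log2 fold change -1.29, or -0.98 with equal library totals, residual -2.26) and P4HA1 rose from 1293 and 1517 to 12102.5 and 12022 (residual 1.52, SE 0.06). ANGPTL4, a secreted inhibitor of lipoprotein lipase, fell from 7462 and 7989 to 1356 and 1264.5 (log2 fold change -2.56, SE 0.07). It stood at 57.0 and 53.1 RPM after pyruvate, still far above the 1.29 to 9.02 of the other untreated libraries.

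Among writers and erasers of histone lactylation, EP300, which encodes p300, measured 1004 and 826 normalised counts in control and 2480 and 2492 in pyruvate (log2 fold change 1.45, SE 0.10, residual 1.30). The residual fell under the threshold with averages over all transcripts (0.55). In RPM, EP300 was 33.9 and 28.1 in control and 104 and 105 in pyruvate, all within the 14.8 to 107 of the other untreated libraries. A single library set that low end, and the rest stood at 94.0, 97.0 and 107, above control. HDAC1 had a log2 fold change of -0.37 and a residual of -0.02. HDAC2 rose from 303 and 358 to 2493 and 2167 (log2 fold change 2.82) with a residual of 0.76, and HDAC3 fell by 1.22 with a residual of -0.50, a direct call lost with equal library totals (-0.91). SIRT1, an NAD-dependent deacylase, measured 41.3 and 44.5 against 472 and 586 (residual 1.79, SE 0.22). Of 18 such genes, 5 were called higher and 5 lower (6 and 2 with equal library totals), and 5 and 0 beyond the trend. The direct shares were near the 31.0% and 23.1% of all genes. Of 27 polycomb and DNA methylation genes, 13 were called higher and 4 lower (14 and 2 with equal library totals), and 6 and 2 beyond the trend. EZH2, the methyltransferase of polycomb repressive complex 2, rose from 83.5 and 58.6 to 684 and 824 (residual 2.77, SE 0.22), while its relative EZH1 fell from 1230 and 1276 to 577 and 512 (log2 fold change -1.20, or -0.89 with equal library totals).

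The few tested members of a list of histone genes that are expressed with DNA synthesis mostly fell, while genes of the replication machinery rose. Of 11 tested out of 56 in the list, 0 were called higher and 10 lower (median -2.51), and 7 were lower beyond the trend (median residual -1.40). H1-2, a linker histone, measured 5378 and 6138 normalised counts in control and 257 and 254 in pyruvate (log2 fold change -4.49, SE 0.10, residual -3.48). H2BC21 measured 1460.5 and 1390 against 167 and 185 (residual -2.93, SE 0.12). These genes have near-identical copies, so reads may be split among them, and the transcripts mostly lack a poly(A) tail. Whether the tested members stand for the rest of the list, or for histone expression during DNA synthesis, was not tested. In RPM, H1-2 was 182 and 209 in control, 18.5 to 30.4 in the other untreated libraries and 10.8 and 10.7 in pyruvate.

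**Figure D3:**
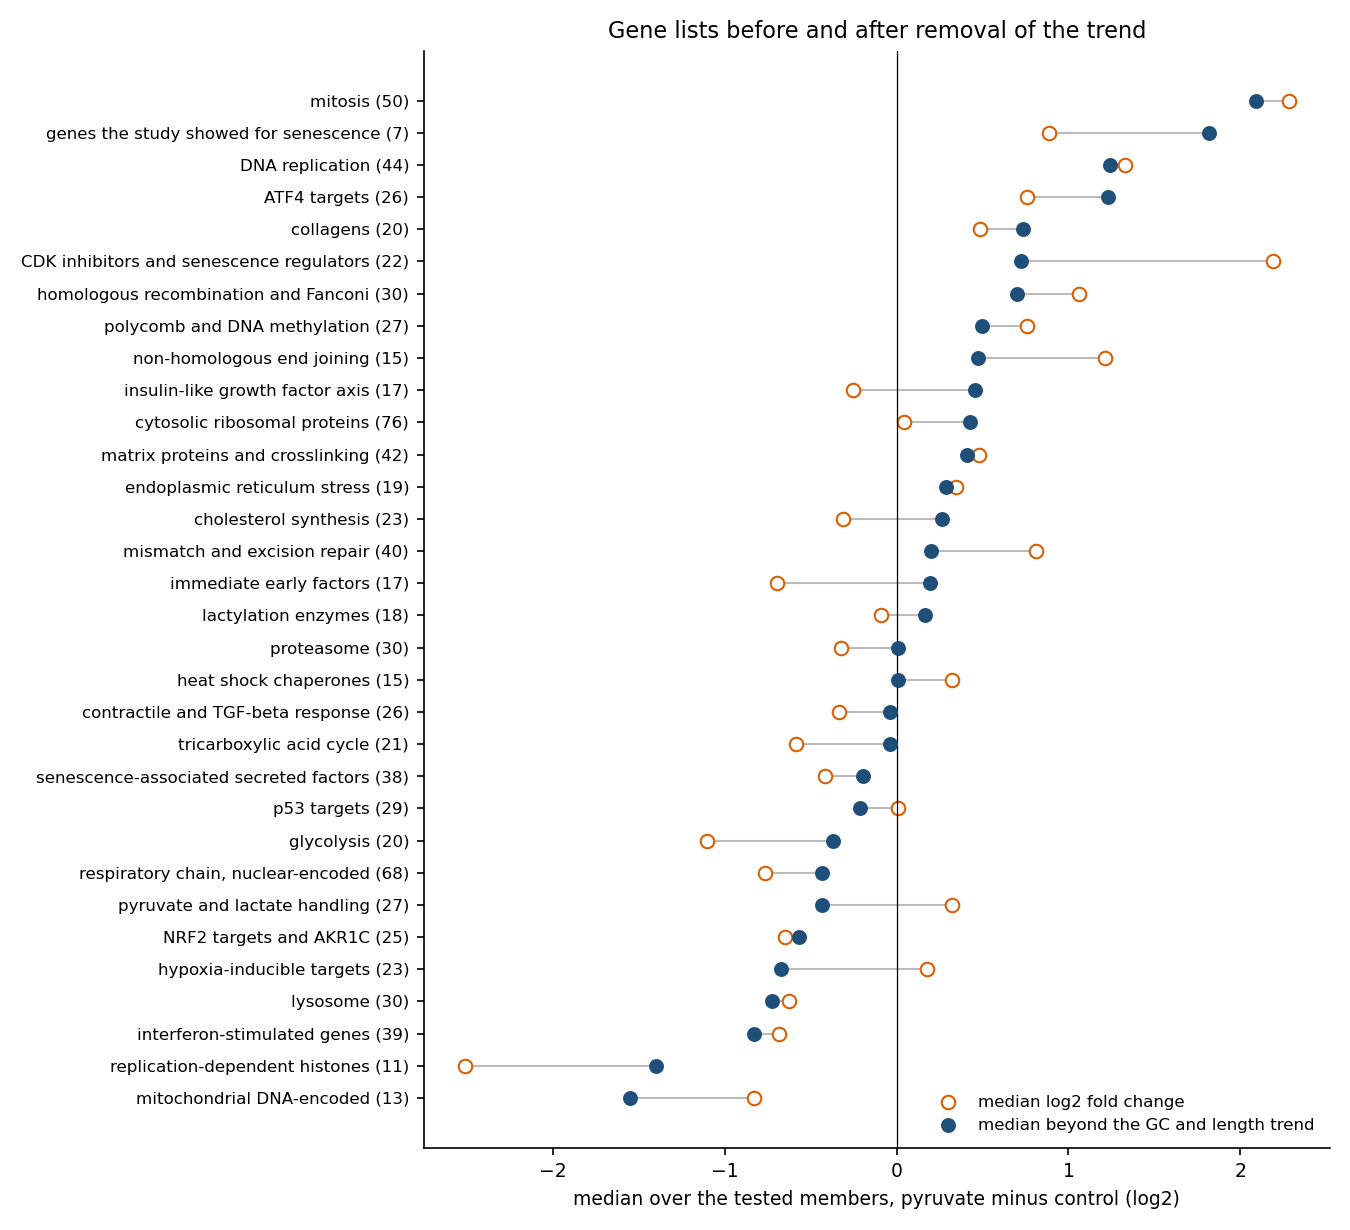
Median over the tested members of each gene list of the log2 fold change (open circles) and of the residual (filled circles), pyruvate minus control on the horizontal axis, lists on the vertical axis. Mitosis keeps 2.09 of 2.28 after removal of the trend, glycolysis goes from -1.10 to -0.37, and ATF4 targets go from 0.76 to 1.23.

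Targets of ATF4, the transcription factor of the integrated stress response that serves amino acid supply, stood out more beyond the trend than directly. Of 26 tested, 11 were called higher and 1 lower (median 0.76), and 17 were higher and 1 lower beyond the trend (median residual 1.23). PHGDH (chromosome 1, 119648411 to 119744218), the entry enzyme of serine synthesis, measured 1240.5 and 1376 normalised counts in control and 5628 and 5951 in pyruvate (log2 fold change 2.15, residual 3.19, SE 0.06). PSAT1, the next enzyme of that pathway, measured 770 and 856 against 10089 and 10037 (log2 fold change 3.63, residual 2.47, SE 0.06). SLC7A5, a carrier of large neutral amino acids, measured 2064 and 2148 against 7343.5 and 7602 (log2 fold change 1.83, residual 2.57, SE 0.06). AARS1, the alanyl-tRNA synthetase, measured 5161.5 and 5041 against 7719 and 7882, with no overlap, a log2 fold change of 0.61 and a residual of 1.17 (SE 0.04). STC2, a secreted glycoprotein, was the member called lower, with a log2 fold change of -1.26 and a residual of -1.17, and these calls were lost with equal library totals (-0.95) and quantile normalisation (residual -0.47). Control lay below all other untreated libraries for 19 of the 26 genes, and pyruvate above all of them for 7. The AARS1 promoter (chr16:70289507-70289756 (minus strand)) is printed with TGATGNAA or TTNCATCA, the letters of the CCAAT enhancer binding protein and ATF response element (CARE), in capitals.
AARS1: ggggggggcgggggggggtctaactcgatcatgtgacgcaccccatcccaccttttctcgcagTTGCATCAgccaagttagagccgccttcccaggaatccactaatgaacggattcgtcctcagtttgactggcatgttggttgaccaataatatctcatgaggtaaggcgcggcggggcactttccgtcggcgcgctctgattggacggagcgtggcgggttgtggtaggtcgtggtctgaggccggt
This window held the letters in 3 of 21 ATF4 target promoters (14.3%), in 2 of the 14 with a higher residual call, in 3.2% of all promoters and in 1.2% of those of tested genes.

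**Figure D4:**
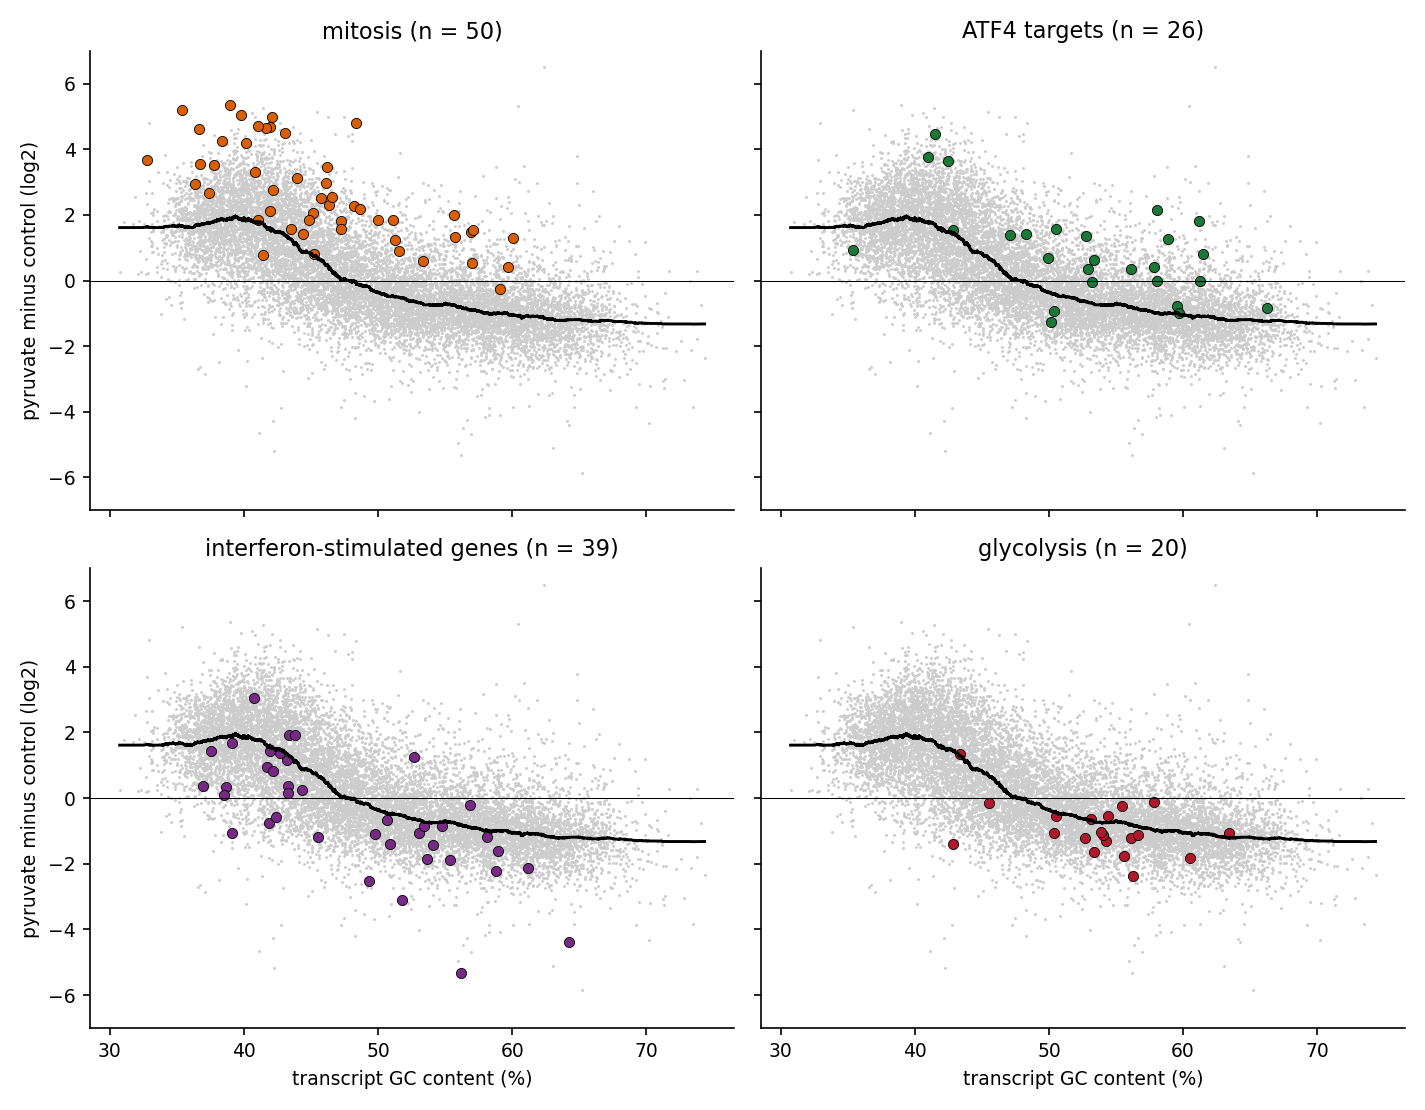
Log2 fold change (vertical axes) against transcript GC content (%, horizontal axes) of all genes (grey), with the members of 4 lists in colour and the running median of all genes as a line. Most of the 50 mitosis genes and of the 26 ATF4 targets lie above the line, most of the 39 interferon-stimulated genes lie on or below it, and 4 of the 20 glycolysis genes were called below the trend.

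Other stress programmes were mixed. Of 25 NRF2 targets and AKR1C genes, 5 were called higher and 9 lower (median -0.65), and 2 and 7 beyond the trend (median residual -0.57). The direct balance was 6 higher and 5 lower with equal library totals (median -0.34), and 5 and 7 with quantile normalisation. AKR1B1, aldose reductase, measured 56637.5 and 59962 normalised counts in control and 3766 and 3483 in pyruvate (residual -3.22, SE 0.04), and FTH1, the ferritin heavy chain, 29715 and 31749 against 8011 and 7833 (log2 fold change -1.96, SE 0.06). Letters of the antioxidant response element core (TGACNNNGC or GCNNNGTCA) were in 5 of 18 promoters of this list (27.8%), in 1 of the 6 with a lower residual call (16.7%), in 11% of all promoters and in 12.2% of those of tested genes. Of 19 endoplasmic reticulum stress genes, 6 were called higher and 0 lower, and 3 and 1 beyond the trend. The higher shares were near the 31.0% and 14.8% of all genes. Of 15 heat shock chaperones, 6 were called higher and 4 lower (7 and 1 with equal library totals), and 3 and 0 beyond the trend. HSP90AA1, the inducible HSP90, rose from 945 and 1018 to 12749 and 12955 (residual 2.21, SE 0.05), and with 536 and 544 RPM it stayed below the 686 to 997 of the other untreated libraries. Of 4 metallothionein and zinc genes tested, 1 was called higher directly, SLC30A1, whose residual was -0.90 and not called. A different member was the 1 called higher beyond the trend.

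Among genes of biosynthesis and turnover, cholesterol synthesis had 9 of 23 called higher and 2 lower (7 and 5 with quantile normalisation), and 4 and 0 beyond the trend, with a median of -0.31 that was near 0 with equal library totals. INSIG1, which holds the sterol-sensing regulator of these genes in the endoplasmic reticulum, measured 324 and 283 normalised counts in control and 1663 and 1802 in pyruvate (residual 1.79, SE 0.11). Of 76 cytosolic ribosomal protein genes, 13 were called higher and 3 lower (18 and 0 with equal library totals), and 12 and 5 beyond the trend, shares near or below those of all genes. RPL23A rose from 1163 and 1260 to 5327 and 5189 (residual 2.22, SE 0.06), and pseudogenes may take reads from these genes. Of 30 proteasome genes, 11 were called higher and 4 lower (11 and 1 with equal library totals), and 2 and 2 beyond the trend. The shares beyond the trend were below the 14.8% and 14.1% of all genes. Of 30 lysosome genes, 2 were called higher and 13 lower (median -0.63, with 5 and 11 called at equal library totals), and 2 and 8 beyond the trend (median residual -0.72). CTSK, a collagen-degrading cathepsin, fell from 3607 and 3705 to 555 and 564 (log2 fold change -2.70, SE 0.08, residual -3.01), and NPC2, a lysosomal cholesterol carrier, from 5028 and 5260 to 1600 and 1628 (residual -1.62, SE 0.06).

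Matrix genes were called higher directly in shares near the 31.0% of all genes, and beyond the trend in shares above the 14.8% of all genes. Of 20 collagen genes, 7 were called higher and 1 lower (median 0.48), and 9 and 2 beyond the trend (median residual 0.74, or -0.28 with a trend on length alone). COL7A1 (chromosome 3, 48564073 to 48595329), the chain of anchoring fibrils, measured 307 and 341 normalised counts in control and 2436 and 2685 in pyruvate (log2 fold change 2.98, SE 0.11, residual 3.71). Its 102 and 113 RPM after pyruvate lay above the 11.2 to 41.9 of the other untreated libraries. COL12A1, a collagen of the fibril surface, measured 15215 and 12005 against 76170 and 77820 (residual 1.70, SE 0.05), and COL4A1, of basement membranes, 37029 and 33493 against 80166 and 81289 (residual 1.60, SE 0.03). Collagens together took 4.47% of reads in control and 6.06% in pyruvate. Of 42 other matrix and crosslinking genes, 15 were called higher and 7 lower (17 and 4 with equal library totals), and 14 and 4 beyond the trend. PCOLCE, an enhancer of procollagen processing, measured 2074 and 2318 against 4572 and 4278 (log2 fold change 1.01, SE 0.08), and its direct call was lost without control replicate 1 (0.93) or pyruvate replicate 1 (0.96). DCN, decorin, rose by 1.33 on the log2 scale while its residual was -0.70.

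Of 26 contractile and TGF-beta response genes, 6 were called higher and 8 lower (7 and 4 with equal library totals, 7 and 5 with quantile normalisation), and 8 and 1 beyond the trend, with a median of -0.33 that quantile normalisation made 0.08. TPM1, a tropomyosin, rose from 11514 and 12199 to 28336 and 27599 (residual 1.82, SE 0.03), and MYH10, non-muscle myosin IIB, from 1025 and 781 to 5540 and 5660 (residual 2.38, SE 0.08). Of 17 genes of the insulin-like growth factor axis, 5 were called higher and 5 lower (7 and 2 with equal library totals), and 4 and 4 beyond the trend, and the median of -0.25 was 0.06 with equal library totals and 0.10 with quantile normalisation. IGF2 rose while its clearance receptor IGF2R fell from 38563 and 30347 to 13645 and 14114.5 (log2 fold change -1.30, SE 0.09, or -0.99 with equal library totals). IGFBP4, a secreted inhibitor of the axis, fell from 137584 and 149901.5 to 27358 and 25887 (residual -1.23, SE 0.04, or -0.42 with quantile normalisation). Of 17 immediate early factors, 1 was called higher and 4 lower, and 1 and 2 beyond the trend. DUSP5, a phosphatase of ERK, fell from 8081.5 and 8664 to 868 and 867 (residual -2.36, SE 0.06).

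The pyruvate effect was compared with the effects of A485 and MS-275 on the same line, each within its own table, as a limma contrast over 8 libraries. No trend on GC content or length was removed here, so the GC trend of the pyruvate comparison remains in these differences. A difference can come from either effect, so a call above 0 need not be a rise after pyruvate. Both contrasts use the same Control6 libraries, so they are not independent of each other or of the results above. The pyruvate effect minus the A485 effect was called above 0 for 4059 genes (33.8% of those tested) and below 0 for 2456 (20.5%), with a median of 0.30 over all genes. Quantile normalisation made these counts 3143 and 3254. The ATF4 targets differed in 22 of 26 genes upwards and 2 downwards (median 2.90) and the mitosis genes in 43 of 50 upwards and 0 downwards (median 3.45). Replication-dependent histones differed in 11 of 11 downwards (median -4.93), secreted senescence factors in 18 of 38 upwards and 1 downwards (median 1.56), and collagens in 13 of 20 upwards and 1 downwards (median 2.03). With pyruvate alone the median was 2.28 for mitosis, 0.76 for ATF4 targets, -2.51 for these histones, -0.41 for secreted factors and 0.485 for collagens.

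The pyruvate effect minus the MS-275 effect was called above 0 for 2773 genes (23.1%) and below 0 for 1914 (15.9%), with a median of 0.11. With equal library totals the counts were 3678 and 1152. The counts fell to 1703 and 1005 without pyruvate replicate 1, 1689 and 1042 without pyruvate replicate 2, 1922 and 1034 without control replicate 1 and 2009 and 1069 without control replicate 2. Mitosis genes differed in 46 of 50 upwards and 0 downwards (median 5.35) and DNA replication genes in 38 of 44 upwards and 0 downwards (median 2.53). Glycolysis genes differed in 1 of 20 upwards and 14 downwards (median -1.75), NRF2 targets and AKR1C genes in 2 of 25 upwards and 14 downwards (median -1.10), and secreted senescence factors in 1 of 38 upwards and 14 downwards (median -0.77). With a block on replicate number, the secreted factors differed in 8 upwards and 18 downwards.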

How the data were processed

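RNA-seq libraries of IMR90 cells were used as deposited: 2 pyruvate and 2 Control6 libraries, plus 4 A485 and 4 MS-275 experiment libraries for comparison. Muscle libraries were not used here. The submitters' processing notes name Trim Galore 0.6.10, HISAT2 2.2.1, SAMtools 1.7, featureCounts 2.0.6 and DESeq2 1.34.0, and the build was hg38. The annotation and strand setting of the counting are not given in the sources used here. The deposited values are a signal, read counts that the authors divided by 1 DESeq2 size factor per library. All values (100%) were whole multiples of 1 read within 0.001, so reads were recovered for count tests. No column of sample values (0) was left unused, and the depth was 24179065 to 30156436 reads per library.

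A gene entered the fits when its 4 libraries averaged at least 10, in limma 3.58.1 (R 4.3.3, eBayes with a trend, pseudocount 1, no covariate), with calls at an adjusted p under 0.05 and an absolute log2 fold change above 1. A fold change on this scale understates changes of low genes. For the residual, additive natural splines (5 degrees of freedom each) on transcript GC content and log2 length from GENCODE 44 were fitted by least squares in each library and removed. GC content and length were found for 98.4% of genes. Both fits were tested on simulated data. Alternatives covered pseudocount, filter, scaling, the form of the trend, left-out libraries, a replicate block, edgeR 4.0.16 and DESeq2 1.42.0. The count test of edgeR on those reads gave 3817 calls upwards and 2646 downwards.

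Genes named in the text were a fixed panel, the 8 largest residual rises and falls among genes called in both tests with no overlap of the groups and an average of 100 or more in the group that was higher, up to 4 members of a list called in both and up to 2 called only directly, and the study's senescence genes. PLK1, CXCL8, MX1 and AARS1 fall outside this rule and were chosen after their values were seen. Some genes that the rule names are not reported here. The members and lists were chosen with earlier results of these data known. Promoters came from RefSeq (GRCh38.p14), matched by symbol for 9216 of the 11825 genes with a residual. Replicates differed by more than sampling noise (chi-square per gene 13.8 in control and 4.54 in pyruvate). Other steps used Python 3.11.15, numpy 2.4.6, pandas 2.3.3, scipy 1.17.1 and matplotlib 3.10.9.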

Additional observations from a re-analysis of the deposited data

How the results depend on the processing

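The direct and residual counts of calls stayed within 1.5 times their values under the alternatives run except as follows. With equal library totals 1741 genes were called lower directly. A trend on length alone, which leaves the GC trend in place, gave 2976 genes higher and 3073 lower, and a fold change minimum of 0.58 gave 2810 higher and 2893 lower. Under that length trend the residual of LDHA turned to 0.22. Leaving out each library in turn gave 3639 to 3762 genes higher and 2716 to 2763 lower directly, and 1645 to 1782 and 1642 to 1681 beyond the trend. For the pyruvate effect minus the MS-275 effect, leaving out each library gave 1689 to 3269 genes above 0 and 1005 to 2585 below, and equal library totals gave 1152 below. For the pyruvate effect minus the A485 effect these ranges were 3762 to 4059 and 2280 to 2590.

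A replicate block gave 3730 genes higher and 2783 lower directly, 1764 and 1674 beyond the trend, 4189 and 2501 for the pyruvate effect minus the A485 effect, and 3922 and 2780 for the pyruvate effect minus the MS-275 effect. The replicate differences of control and pyruvate correlated at 0.002 across genes, those of the A485 experiment at 0.316 and those of the MS-275 experiment at 0.728. Same-numbered libraries thus deviated together in the MS-275 experiment, where the labels give only a shared number, and the counts without the block leave that spread in the error. The block changed no direct or residual call of a gene named by the rule. Over 193 such genes, 38 lost their direct call and 48 their residual call under at least 1 alternative. The cause was not tested. On the lists, the length-only trend turned the median residual of several lists, to -0.28 for collagens, -0.09 for other matrix genes, -0.15 for cholesterol synthesis, -0.14 for the insulin-like growth factor axis, -0.10 for lactylation enzymes, -0.66 for immediate early factors, -0.01 for the proteasome, 0.19 for p53 targets and 0.37 for pyruvate and lactate handling. Across the other settings the median residual also changed sign for some lists. Its range was -0.32 to 0.10 for secreted factors, -0.29 to 0.16 for the tricarboxylic acid cycle and -0.12 to 0.74 for heat shock chaperones. For the proteasome the range was -0.19 to 0.47, and for contractile and TGF-beta response genes -0.06 to 0.64. Depth limits genes with few reads, such as AEBP1 in control, and 2 libraries a group limit every SE.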
